A study of Mus musculus with 3 samples.

Results

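The 53 genes described here encode the translation initiation factors (symbols beginning with Eif), among them the eIF2 kinases and the 4E-binding repressors. They were chosen by name from the deposited count table: protein-coding rows with such a symbol, on neither X nor Y, 53 of 18287 listed genes. The same rule left out 3 protein-coding Eif rows on X or Y and 7 processed pseudogenes, which are copies of spliced transcripts without introns. RNA came from purchased mouse aortic endothelial cells (MAECs), with 1 library for each of 3 groups: control cells, cells given glucose oxidase at 5 mU/mL for 30 min, and cells given the same glucose oxidase with ethyl-2-hydroxybenzylamine (Et2HOBA) at 0.2 mM for 24 h. Glucose oxidase produces hydrogen peroxide from glucose, and Et2HOBA is a scavenger of reactive dicarbonyl products of lipid oxidation. The labels give no order for the exposures, and no library with Et2HOBA alone was analysed here.

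The libraries held 35969965 reads (control), 35005089 (glucose oxidase alone) and 40212212 (both agents); those after glucose oxidase alone are reads that were worked back from a deposited log2 difference. All 8 endothelial markers were present, at 1688 to 78258 reads. Their sums were 310342 reads in control, 188857 under glucose oxidase alone and 192686 under both agents. The markers did not move together: under both agents they ranged from 1.14 of control (Cdh5) down to 0.247 (Tek). Markers of other cells were mostly near 0, but Pdgfra (fibroblast list, 107, 1325 and 2821 reads in that order) and Cd68 (leukocyte list, 8215, 17067 and 27799 reads) were higher in both treated libraries; the other 4 listed markers of smooth muscle and fibroblasts had 4 to 73 reads, and the other 6 of those lists and of leukocytes were not listed. Their part in the results below was not tested, and in a bulk sample fewer cells of a type and less RNA per cell cannot be told apart. With 1 library per group no difference has a replicate check and none was tested. Intervals at 95% are exact Clopper-Pearson intervals on the reads of the libraries compared, and cover counting error only.

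Initiation factors bring the initiator tRNA, the small ribosomal subunit and the mRNA together. eIF2 carries the initiator tRNA and is recharged by the exchange factor eIF2B; stress-activated kinases phosphorylate eIF2 alpha, which blocks that exchange, lowers most protein synthesis and favours translation of ATF4 (the integrated stress response). The cap-binding protein eIF4E recruits the scaffold eIF4G and the helicase eIF4A, and hypophosphorylated 4E-BPs, substrates of the kinase complex mTORC1, keep eIF4E from eIF4G. In endothelial cells oxidants can engage the integrated stress response.

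Most of the 53 genes were abundant and differed little between the libraries, with a few that stood out. Eif4ebp1 was the gene farthest above control in both treated libraries. Among genes with 100 or more normalized reads on average, the farthest below control was the kinase gene Eif2ak2. Every member was detected in every library, at 4 to 56673 reads, and 45 had 1000 or more in each.

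Ratios are given as log2 of normalized reads plus 10. For abundant genes 1 unit is close to a 2-fold difference, and for scarce genes it takes a larger difference. After glucose oxidase 2 members lay 1 unit or more above control, Eif4ebp1 and Eif3c, against 4.07% of all listed genes and 4.53% of protein-coding ones; 1 lay as far below, the scarce gene Eif4a3l2, against 8.60% and 4.76%. With Et2HOBA 5 members lay past the limit above control (Eif4ebp1, Eif3c, Eif1, Eif2s2 and Eif2b3) against 6.66% of all and 7.33% of protein-coding genes, and 1 below (Eif2ak2) against 8.04% and 9.30%. Between the treated libraries 1 member, Eif4a3l2, was higher past the limit with Et2HOBA, where 6.39% of all genes and 0.971% of protein-coding genes were, and none was lower, where 2.15% and 2.35% were. The counts above the limit are thus close to the background share of a list of this length.

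The median member lay at 0.15 after glucose oxidase, where all listed genes had a median of -0.01 and protein-coding genes 0.04. With Et2HOBA the members' median was 0.31 above control, against -0.0002 over all genes, and between the treated libraries it was 0.13, against 0.00. Total-count scaling, which puts the all-gene medians at -0.06, -0.13 and -0.08, gave member medians of 0.09, 0.16 and 0.04. On the main scale 39 members (73.6%) were above control after glucose oxidase, against 48.9% of all genes and 54.0% of protein-coding ones, and 41 (77.4%) with Et2HOBA, against 9140 of the 18287 listed genes and 50.1% of protein-coding ones. With total-count scaling the member counts were 36 and 33 (67.9% and 62.3%), against 44.3% and 41.2% of all genes. At 0.5 units 9 were higher and 2 lower after glucose oxidase (13.5% and 20.3% of all genes, 1801 and 1792 of the 13285 protein-coding ones). With Et2HOBA 14 were higher and 2 lower (19.2% and 20.9% of all genes, 2543 and 2851 protein-coding ones). Between the treated libraries 4 were higher and 2 lower (13.6% and 12.0% of all genes, 756 and 1535 protein-coding ones). The members together took 1.05% of all reads of the control library, 1.22% after glucose oxidase and 1.30% with Et2HOBA.

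**Figure D1:**
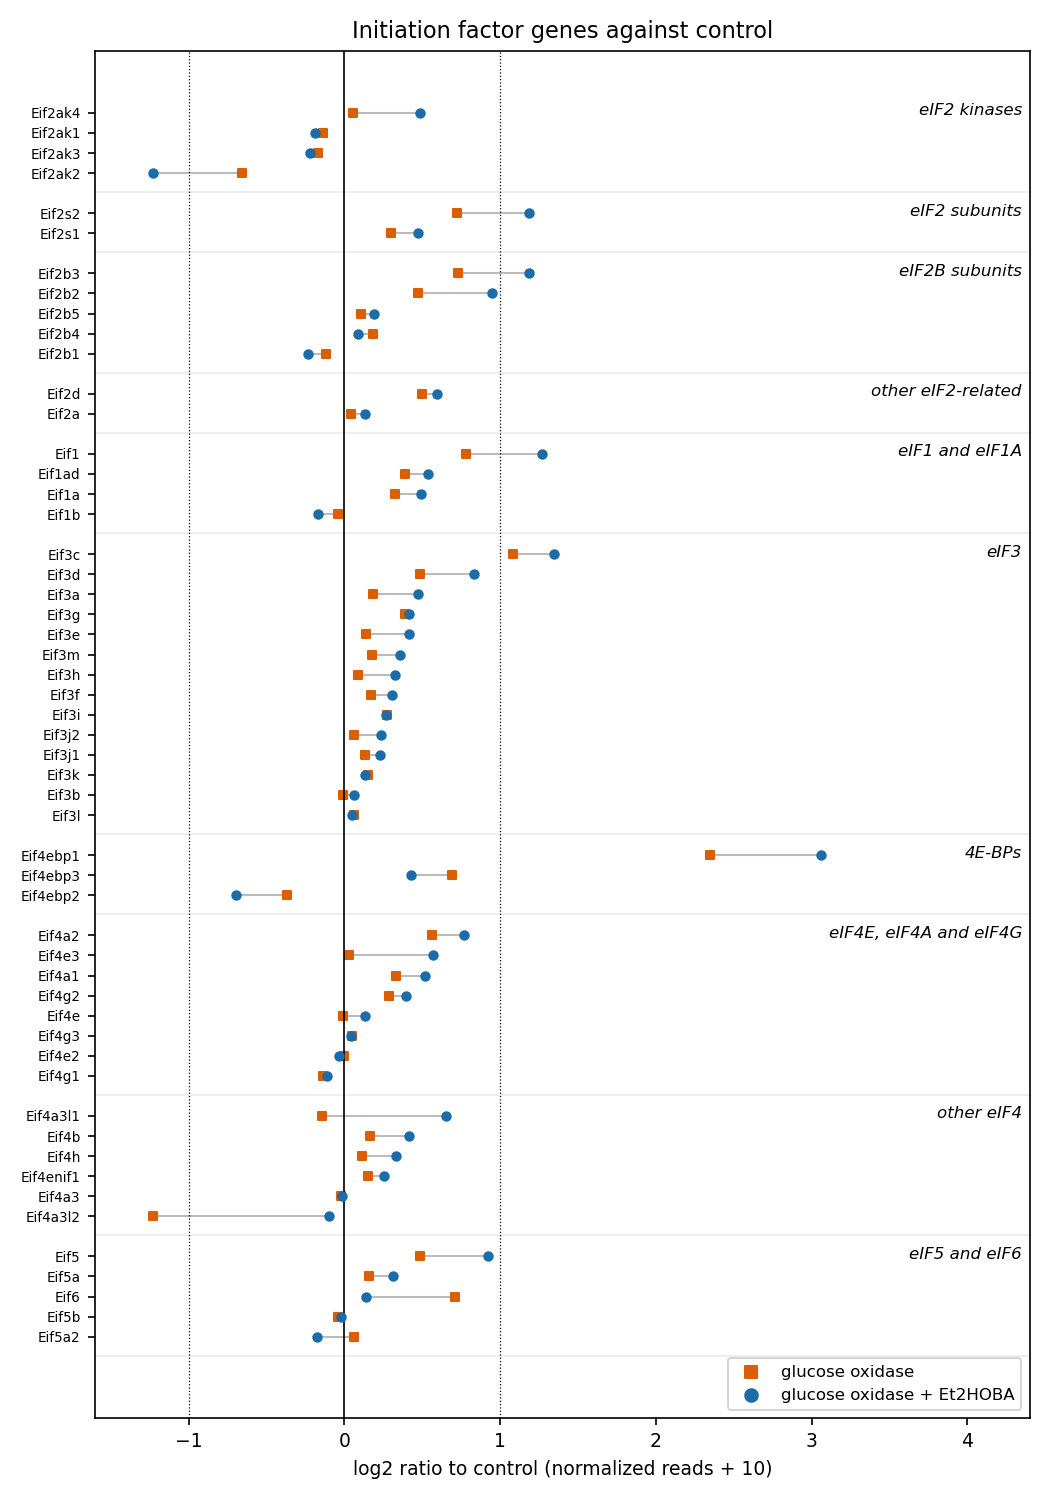
Log2 ratio to control (x axis, normalized reads plus 10) of each of the 53 genes (y axis), by role; squares show glucose oxidase, circles glucose oxidase plus Et2HOBA, and dotted lines 1 log2 unit. Eif4ebp1 reaches 2.35 and 3.06, and Eif2ak2 lies at -0.66 and -1.23. Within 0.5 units of control lie 42 and 37 of the genes (79.2% and 69.8%). The same shares are 66.2% and 59.9% of all listed genes and 73.0% and 59.4% of protein-coding ones. Both sets of points use the same control library.

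The repressor genes of eIF4E differed in direction: Eif4ebp1 was far above control in the treated libraries while Eif4ebp2 was below it. 4E-BP1 and 4E-BP2 bind eIF4E through a short motif (a tyrosine, any 4 residues, a leucine and a hydrophobic residue). The coding bases of that motif, from GENCODE M21 transcripts, are shown to compare the pair, 5′ to 3′ on the coding strand with the 21 motif bases in capitals; 18 of the 21 are the same, and each coding sequence has 1 match.
Eif4ebp1: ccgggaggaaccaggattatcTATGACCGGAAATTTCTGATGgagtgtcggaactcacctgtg
Eif4ebp2: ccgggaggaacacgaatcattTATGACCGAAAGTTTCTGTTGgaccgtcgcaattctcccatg
In both genes the stretch crosses the junction of the first coding exon and the next (GRCm38): exon 1 at chr8:27260544-27260550 and exon 2 at chr8:27273323-27273378 on the plus strand for Eif4ebp1, and chr10:61452402-61452408 and chr10:61435048-61435103 on the minus strand for Eif4ebp2. The motif spans codons 53 to 59 of Eif4ebp1 and 54 to 60 of Eif4ebp2.

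Eif4ebp1 (ENSMUSG00000031490.6, chromosome 8, 27260329 to 27276674) encodes 4E-BP1, and its gene is a known target of ATF4. Its reads numbered 1744 in control, 8340 under glucose oxidase alone and 14695 under both agents. The order is control, glucose oxidase, then glucose oxidase plus Et2HOBA, with wide gaps between all libraries. After glucose oxidase it stood at 5.11-fold the control level (95% interval 4.85 to 5.39), and with Et2HOBA at 8.37-fold (7.97 to 8.80), which was 1.64-fold the level after glucose oxidase alone (1.59 to 1.68).

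Eif4ebp2 (ENSMUSG00000020091.15, chromosome 10, 61428491 to 61452661), the related repressor 4E-BP2, had 6364, 4602 and 3945 reads in the same order of libraries. Its order was the opposite of that of Eif4ebp1, highest in control. The level was 0.773 of control after glucose oxidase (0.744 to 0.803) and 0.616 with Et2HOBA (0.592 to 0.641). Eif4ebp3 had 4, 12 and 9 reads, and its intervals against control (0.972 to 13.6 and 0.624 to 9.93) include equal levels. Of its 50-base stretches 65.5% occur in another gene, which overlaps 501 of its 744 exon bases on the same strand.

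Reads divided by exon length allow a rough comparison between genes within a library. The length used was that of all annotated exons of a gene merged, not that of a single transcript. Ratios between genes depend on that choice, whereas the change of a pair's ratio across libraries does not. In control Eif4ebp1 had 769.6 normalized reads per kb of exon and Eif4ebp2 1066, a ratio of 0.722. It came to 4.77 after glucose oxidase and 9.81 under both agents, so that Eif4ebp1 made up 41.8%, 82.4% and 90.6% of the summed level of the 3 repressors. The sum was 4.02 times the level of Eif4e per kb in control, 10.5 times after glucose oxidase and 14.2 times with Et2HOBA. These are levels of mRNA and not of protein or of its phosphorylated forms.

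**Figure D2:**
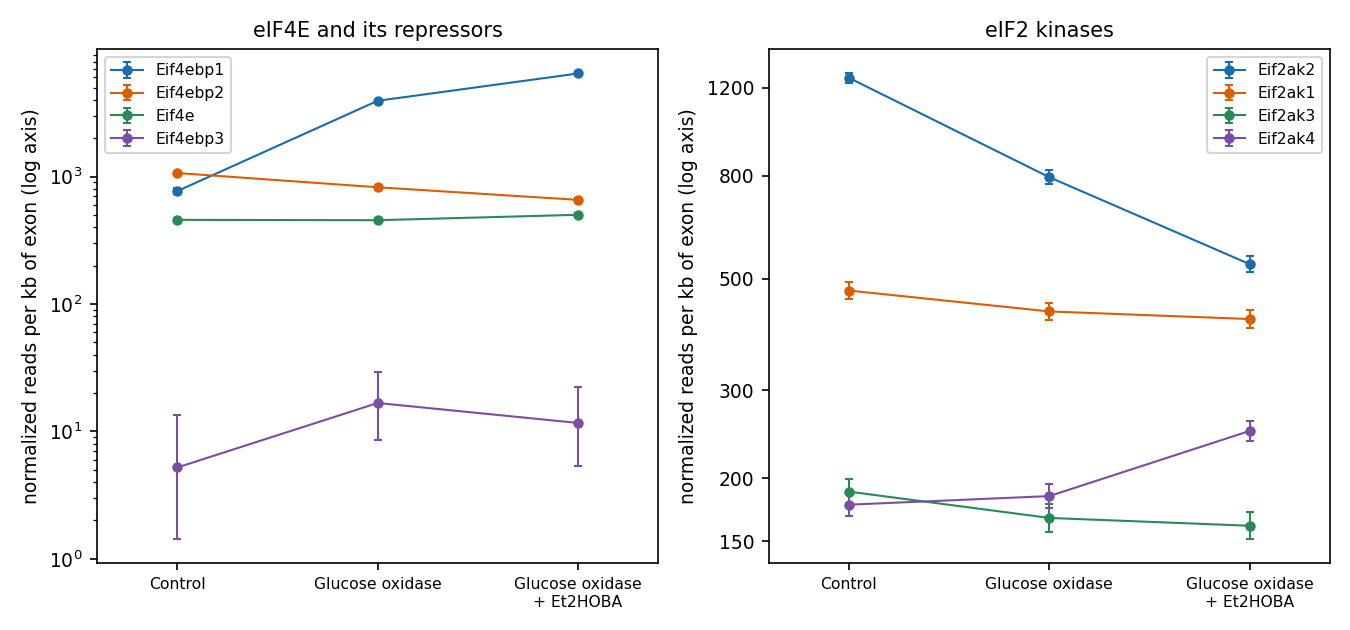
Normalized reads per kb of exon (y axis, log scale) in the 3 libraries (x axis) for Eif4e and the 4E-BP genes (left) and the eIF2 kinase genes (right); bars are exact Poisson 95% intervals of the reads, counting error only, and lines join points of 1 gene. Eif4ebp1 and Eif4ebp2 change places between control and glucose oxidase, Eif4e lies between 454 and 501, and Eif2ak2 goes from 1254 to 534.

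The cap-binding complex itself showed small differences. Eif4e, which binds the cap, had 2836, 2636 and 3128 reads, or 0.994 (0.942 to 1.05) and 1.10 (1.04 to 1.15) of control, the second turning below 1 with total-count scaling. Eif4e2, whose product 4EHP binds the cap without joining eIF4G, had 3690, 3443 and 3629 reads, with both intervals against control including equality (0.952 to 1.05 and 0.933 to 1.02). Eif4e3 was near the limit of detection, with 4, 4 and 11 reads. None of these genes lay 1 unit from control.

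Among the scaffolds, Eif4g1, the main eIF4G, had 32185, 27325 and 29989 reads, 0.908 (0.893 to 0.922) and 0.926 (0.911 to 0.941) of control. Its relative Eif4g3 had 5096, 4941 and 5283 reads, ratios of 1.04 (0.997 to 1.08) and 1.03 (0.991 to 1.07) that both turn below 1 with total-count scaling. Eif4g2, encoding DAP5, which acts without eIF4E binding, had 42740, 48680 and 56673 reads, the highest read count of the members, at 1.22-fold (1.20 to 1.23) and 1.32-fold (1.30 to 1.33). Of the scaffold genes, Eif4g2 was thus the one whose intervals lay above control, and those of Eif4g1 lay slightly below it.

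The helicase genes were both above control. Eif4a1 had 27533, 32472 and 39748 reads, at 1.26-fold (1.24 to 1.28) and 1.43-fold (1.41 to 1.46) of control, and shares 33.3% of its stretches with other genes. Eif4a2 had 10727, 14808 and 18412 reads, at 1.48-fold (1.44 to 1.51) and 1.71-fold (1.67 to 1.75). Eif4a1 remained the more abundant per kb, by 3.16 times in control, 2.70 times after glucose oxidase and 2.66 times with Et2HOBA. Of the helicase cofactors, Eif4b and Eif4h had log2 ratios of 0.17 and 0.11 after glucose oxidase and 0.41 and 0.33 with Et2HOBA.

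Promoters of 41 of the 53 genes were in the RefSeq table (GRCm38.p6), and the 250 bases before each start were searched on both strands for the E-box CACGTG, a site bound by MYC and related factors. It occurred in 9 of the 41 members (22.0%) and in 6.86% of all 27025 symbols in the table. A symbol counted when any of its promoters matched. The symbols were not limited to the listed or protein-coding genes, so the shares compare unlike sets. The 9 were Eif1b, Eif3f, Eif3k, Eif4a1, Eif4e, Eif4g1, Eif4h, Eif5a and Eif5a2, with log2 ratios of -0.18 to 0.52 with Et2HOBA against control, within the limit of 1. The sites of the cap-complex genes are shown because eIF4E, eIF4G and eIF4A act together, each with the E-box in capitals.
Eif4e, distal site: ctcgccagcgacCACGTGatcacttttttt
Eif4e, proximal site: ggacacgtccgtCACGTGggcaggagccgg
Eif4g1: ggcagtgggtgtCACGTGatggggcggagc
Eif4a1: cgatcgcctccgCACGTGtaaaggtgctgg
They lie at chr3:138527028-138527057 and chr3:138527192-138527221 (plus strand), chr16:20672661-20672690 (plus) and chr11:69672595-69672624 (minus). The core motif TGATGNAA of ATF4 with C/EBP factors was in none of the 41 windows (3.91% of all symbols), and the core of an interferon response element was in those of Eif2s1 and Eif3a (3.46% of all symbols). The 12 members with no entry are Eif1a, Eif2b3, Eif3e, Eif3h, Eif3i, Eif3j2, Eif4a3l2, Eif4e3, Eif4ebp1, Eif4ebp3, Eif4g2 and Eif6. These are matches of letters and not measured sites.

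The kinase genes of eIF2 differed from control in different directions. They act on a serine of eIF2 alpha, encoded by Eif2s1, numbered 51 without the initiator methionine; its codon, the 52nd of the reading frame, is in capitals in the coding stretch at chr12:78866650-78866712 (exon 2, plus strand, GRCm38), shown because all 4 kinases converge on it.
Eif2s1: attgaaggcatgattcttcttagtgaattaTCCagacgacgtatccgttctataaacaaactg

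Eif2ak2 (ENSMUSG00000024079.4, chromosome 17, 78852564 to 78882573) encodes PKR, which responds to double-stranded RNA and is itself induced by interferon. Its reads numbered 6619 in control, 3927 under glucose oxidase alone and 2837 under both agents. Control was the highest library and the one with Et2HOBA the lowest. The level was 0.634 of control (0.610 to 0.660) after glucose oxidase and 0.426 (0.407 to 0.445) with Et2HOBA, and the step between the treated libraries was 0.671 (0.640 to 0.705).

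Eif2ak4 encodes GCN2, the sensor of uncharged tRNA and stalled ribosomes. Its reads were 1365, 1328 and 1926, so that the library with Et2HOBA stood above the other pair. It was 1.04 of control after glucose oxidase (0.964 to 1.12), a ratio that turns below 1 with total-count scaling, 1.40 with Et2HOBA (1.31 to 1.50) and 1.35 between the treated libraries (1.26 to 1.45).

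The other kinase genes lay a little below control in both treated libraries. Eif2ak1, for the heme-regulated kinase HRI that also relays mitochondrial stress, had 2769, 2354 and 2446 reads (0.909, interval 0.860 to 0.960, and 0.878, interval 0.831 to 0.927). Eif2ak3, for the endoplasmic reticulum sensor PERK, had 1171, 971 and 1008 reads (0.886, interval 0.813 to 0.966, and 0.855, interval 0.785 to 0.931). Between the treated libraries the intervals of both included equality. By exon length PKR mRNA was the most abundant of the 4 in every library, at 59.9% of their sum in control, 50.4% under glucose oxidase alone and 39.3% under both agents, while GCN2 mRNA went from 8.47% to 11.7% and 18.3%.

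The subunits of eIF2 and of its exchange factor eIF2B differed unevenly between the libraries. For eIF2, Eif2s2 (beta subunit; ENSMUSG00000074656.12, chromosome 2, 154871410 to 154892935) had 6111, 9455 and 14001 reads. It was 1.65-fold of control (1.60 to 1.71) after glucose oxidase and 2.28-fold (2.21 to 2.35) with Et2HOBA. Eif2s1 (alpha), the kinases' substrate, had 4655, 5350 and 6517 reads, a smaller difference of 1.23-fold (1.18 to 1.28) and 1.39-fold (1.34 to 1.44). Per kb, Eif2s2 stood at 0.962 of Eif2s1 in control, 1.30 under glucose oxidase alone and 1.57 under both agents. Merged exon lengths were 6755 bases for Eif2s2 and 4951 for Eif2s1, and the longest transcripts 4102 and 3405. Which gene was higher in control thus depends on the length used. The gamma subunit is encoded on the sex chromosomes and so fell outside the rule.

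Of the eIF2B subunits, Eif2b3 (gamma, of the catalytic part; ENSMUSG00000028683.14, chromosome 4, 117019402 to 117087306) had 536, 839 and 1239 reads. That was 1.67-fold (1.50 to 1.87) and 2.30-fold (2.07 to 2.55) of control. Eif2b2 (beta, of the regulatory part) had 2813, 3654 and 5458 reads, at 1.39-fold (1.32 to 1.46) and 1.93-fold (1.84 to 2.02). Both genes had the highest count in the library with Et2HOBA and the lowest in control, and neither shares a 50-base stretch with another gene.

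The other eIF2B subunits stayed close to control. Eif2b5 (epsilon, the catalytic subunit) had 3977, 4003 and 4566 reads, at 1.08-fold (1.03 to 1.12) and 1.14-fold (1.09 to 1.19). Eif2b4 (delta) had 1187, 1260 and 1267 reads, at 1.13-fold (1.05 to 1.23) and 1.06-fold (0.979 to 1.15), the second turning below 1 with total-count scaling. Eif2b1 (alpha) had 1730, 1492 and 1478 reads, below control at 0.922 (0.860 to 0.989) and 0.849 (0.791 to 0.910). Eif2b3 was the scarcest of the 5 per kb in every library, and the ratio of the highest to the lowest subunit per kb was 18.6 in control and 15.1 and 15.2 in the treated libraries.

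**Figure D3:**
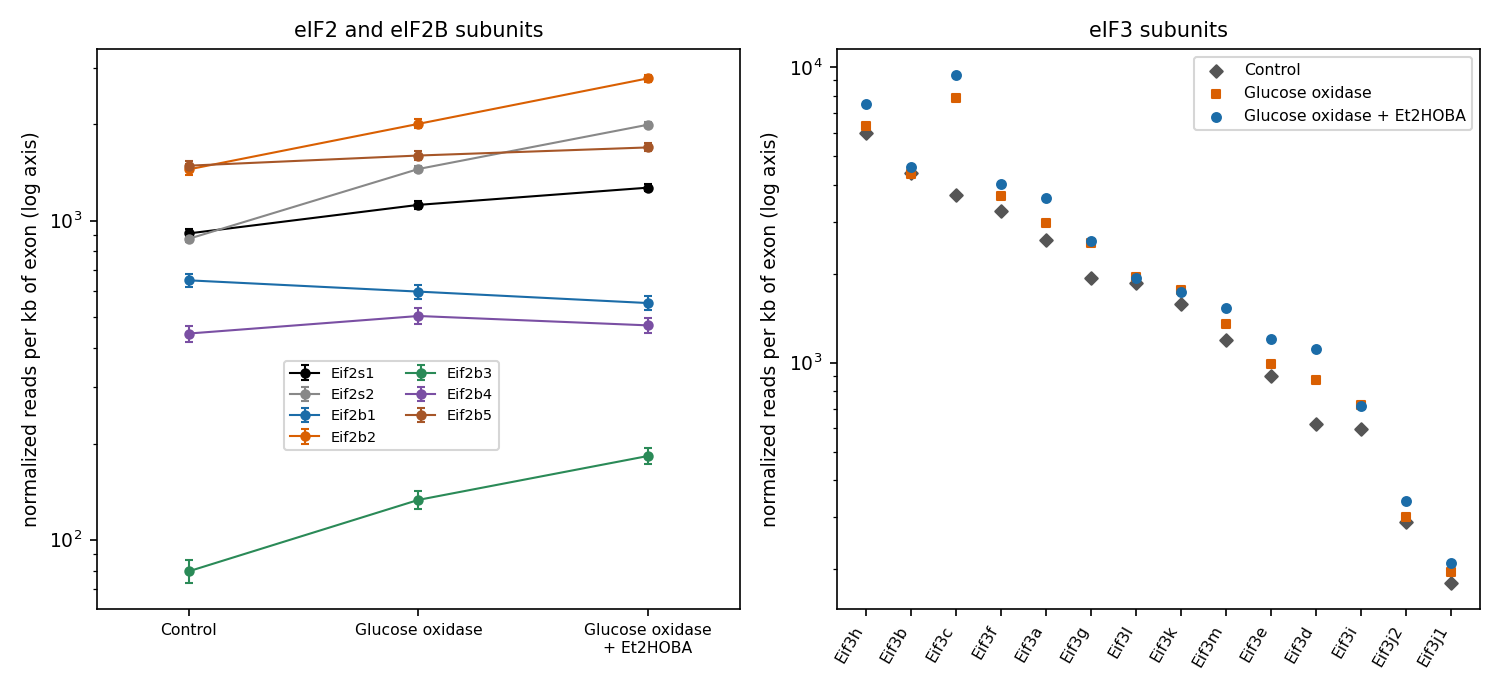
Normalized reads per kb of exon (y axes, log scale). Left, eIF2 and eIF2B subunits in the 3 libraries with exact Poisson 95% intervals of the reads; right, the 14 eIF3 genes ordered by their control level, with a symbol for each library. Eif2s2, Eif2b2 and Eif2b3 lie farther above control than their partners, and Eif3c goes from 3703 to 7840 and 9414 while the points of Eif3b and Eif3l nearly coincide.

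The start-site factors Eif1 and Eif5 were above control as well. eIF1 holds the scanning ribosome open until a start codon is met and eIF5 promotes the following step. Eif1 (ENSMUSG00000035530.13, chromosome 11, 100319885 to 100322096) had 12486, 20034 and 30294 reads, 1.72-fold (1.68 to 1.75) and 2.41-fold (2.36 to 2.46) of control, and shares 31.6% of its stretches with other genes. Eif5 had 8701, 11388 and 16587 reads, 1.40-fold (1.36 to 1.44) and 1.89-fold (1.85 to 1.94). In both genes control was lowest and the library with Et2HOBA highest; per kb, Eif1 was 4.66, 5.72 and 5.94 times Eif5 in the 3 libraries. Eif1b, a close relative of Eif1, did not share its pattern, with 1290, 1170 and 1154 reads, at 0.970 (0.895 to 1.05) and 0.889 (0.820 to 0.963).

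With Et2HOBA, Eif2d, Eif2a, Eif1a and Eif1ad lay less far above control than Eif1 and Eif5 did. Eif2d, an alternative initiator tRNA factor, had 3394, 4495 and 5157 reads, at 1.42-fold (1.35 to 1.48) and 1.51-fold (1.45 to 1.58) of control. Eif2a, another such protein that is distinct from eIF2 alpha, had 2503, 2407 and 2757 reads, at 1.03-fold (0.972 to 1.09) and 1.09-fold (1.04 to 1.16), both turning below 1 with total-count scaling. Eif1a, for the partner of eIF1, and Eif1ad lay at log2 ratios of 0.33 and 0.39 after glucose oxidase and 0.49 and 0.54 with Et2HOBA.

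eIF3, the large scaffold on the small ribosomal subunit, was represented by 14 genes, and Eif3c stood apart from the rest. Eif3c (ENSMUSG00000030738.11, chromosome 7, 126546455 to 126566411), a core subunit, had 13418, 26573 and 34329 reads. Most of the difference was already present after glucose oxidase, at 2.12-fold of control (2.07 to 2.16), against 2.54-fold (2.49 to 2.59) with Et2HOBA and 1.20-fold (1.18 to 1.22) between the treated libraries. It shares 7.65% of its stretches with another gene, a pseudogene. Per kb its level was 2.34 times the median of the other subunits in control, 4.47 times after glucose oxidase and 5.44 times with Et2HOBA.

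The 13 other eIF3 genes had log2 ratios below 0.5 after glucose oxidase, and the median of all 14 was 0.16. With Et2HOBA the median was 0.32 and all 14 ratios were above 0, 11 of them with total-count scaling, against 9140 and 7537 of the 18287 listed genes. Eif3d, whose product can bind the cap of some mRNAs, came next after Eif3c, with ratios of 0.48 and 0.83, but 42.1% of its stretches are shared with an antisense gene that overlaps it, and whether the counting used strand is not given in the sources used here. Eif3l lay closest to control with Et2HOBA, with 7009, 6850 and 7312 reads (1.04-fold after both treatments, intervals 1.01 to 1.08 and 1.003 to 1.07), and its ratio with Et2HOBA turns below 1 with total-count scaling. Eif3b, a core subunit like Eif3c, had log2 ratios of -0.01 and 0.06. Eif3j1 and Eif3j2 are related copies, and 54.8% and 91.8% of their stretches occur in other genes, including each other. Reads may thus have been split between them. Spg11, on the opposite strand, also overlaps 1107 exon bases of Eif3j1. Per kb the eIF3 genes spanned 33.2 times from highest to lowest in control and 44.7 times with Et2HOBA. The lowest was Eif3j1 in both libraries, so the span rests on a gene with much shared sequence. The highest was Eif3h in control and Eif3c with Et2HOBA.

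Late factors were mixed, and Eif6 was the one farthest above control after glucose oxidase. Eif6 (ENSMUSG00000027613.15, chromosome 2, 155819832 to 155826925) encodes a factor that keeps the large ribosomal subunit from joining; it was chosen for mention after its values were seen. It had 4180, 6389 and 4638 reads, so glucose oxidase alone was the highest library. The level was 1.63-fold of control after glucose oxidase (1.57 to 1.70), 1.10-fold with Et2HOBA (1.06 to 1.15), and 0.675 between the treated libraries (0.650 to 0.701). It shares 7.79% of its stretches with other genes, among them an antisense gene that overlaps 138 bases of its exons.

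Eif5a, a hypusine-containing factor that helps ribosomes past difficult stretches, was the most abundant member per kb in control, at 8115 normalized reads per kb, and had log2 ratios of 0.16 and 0.31. Its paralog Eif5a2 had 646, 630 and 574 reads, at 1.04-fold (0.933 to 1.17) and 0.883 (0.788 to 0.989) of control. Eif5b, which joins the subunits, had ratios of -0.04 and -0.02. In the treated libraries Eif1 took the first place per kb and Eif5a the next.

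The scarce copies of Eif4a3 differed more between libraries than their parent gene. Eif4a3 encodes a helicase of the exon junction complex, and its reads were 4352, 4011 and 4335. Eif4a3l2 had 39, 10 and 36 reads: 0.274 of control (0.122 to 0.559) after glucose oxidase, 0.917 (0.567 to 1.48) with Et2HOBA, and 3.35-fold (1.63 to 7.56) between the treated libraries. The glucose oxidase library was thus the low one. Eif4a3l1 had 7, 5 and 17 reads, with an interval of 1.12 to 11.0 around 3.16-fold between the treated libraries. The first 90 coding bases are shown because reads of these genes can be hard to tell apart; capitals mark bases that differ from Eif4a3, 9 in each copy, and over the 1236 coding bases the copies are 96.2% (Eif4a3l1) and 96.8% (Eif4a3l2) identical to it.
Eif4a3: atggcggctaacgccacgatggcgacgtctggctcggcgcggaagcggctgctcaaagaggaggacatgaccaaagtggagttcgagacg
Eif4a3l1: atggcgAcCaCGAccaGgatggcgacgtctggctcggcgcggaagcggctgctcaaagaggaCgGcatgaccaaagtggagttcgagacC
Eif4a3l2: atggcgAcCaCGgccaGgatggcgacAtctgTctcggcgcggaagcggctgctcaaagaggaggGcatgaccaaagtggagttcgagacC
They lie at chr11:119299907-119299996 (minus strand), chr6:136328543-136328632 and chr6:116551164-116551253 (plus strand).

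The 7 processed pseudogenes with an Eif symbol, which are not members, were each lowest in the glucose oxidase library. Eif5al3-ps had 161, 11 and 182 reads, and Eif4a-ps4, which shares 95.7% of its stretches with other genes, had 1404, 846 and 2096. As a median their log2 ratio was -0.63 under glucose oxidase alone and 1.54 between the treated libraries, where the 2110 listed processed pseudogenes of all kinds had medians of -0.82 and 0.90. Of those 2110, 1873 were below control after glucose oxidase and 1880 were higher with Et2HOBA than after glucose oxidase alone. The low values in that library were thus not particular to the Eif copies. The part of shared reads in the members' values was not tested. For the 16 members that have no shared stretch the medians were 0.11 and 0.26 against control, and 0.08 between the treated libraries, against 0.16, 0.35 and 0.15 over the other 37.

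**Figure D4:**
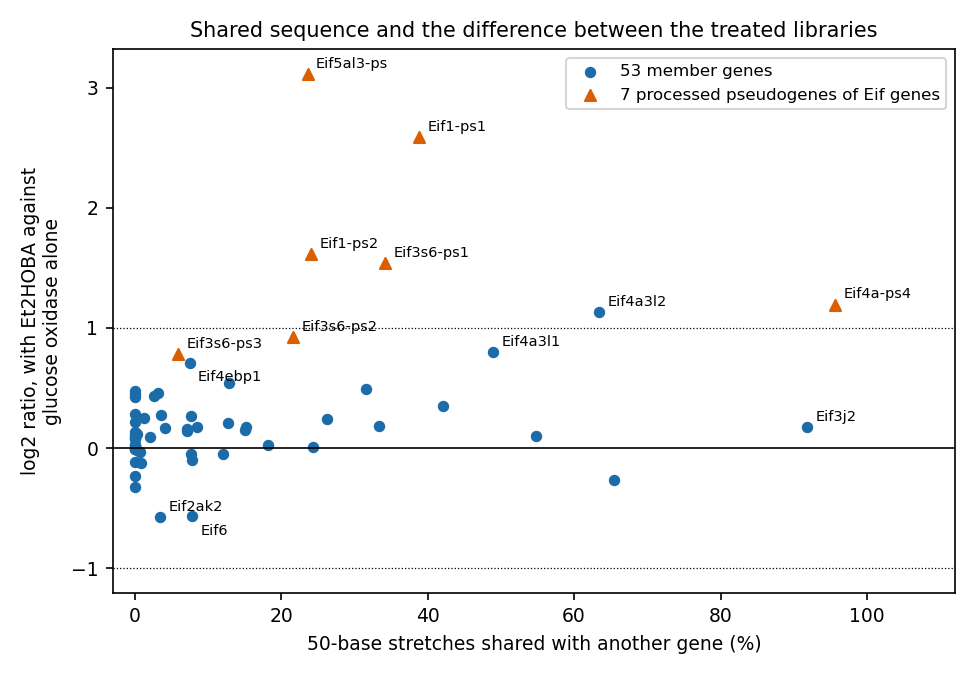
Log2 ratio of glucose oxidase plus Et2HOBA to glucose oxidase alone (y axis) against the share of 50-base stretches of the longest transcript found in another annotated gene (x axis, percent), for the 53 members (circles) and 7 Eif pseudogenes (triangles). All 7 pseudogenes lie between 0.78 and 3.11, and the member past the dotted line at 1 is Eif4a3l2, with 63.4% shared.

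Among the genes listed for eIF2 phosphatase and kinase regulation, Ppp1r15a differed nearly as much as Eif4ebp1 did. Ppp1r15a encodes GADD34, the inducible subunit that directs phosphatase to eIF2 alpha. It had 1449, 6356 and 11899 reads, at 4.69-fold (4.43 to 4.97) and 8.16-fold (7.73 to 8.62) of control and 1.74-fold (1.69 to 1.79) between the treated libraries. Ppp1r15b, the constitutive counterpart, had 2796, 3068 and 3890 reads, at 1.17-fold (1.11 to 1.24) and 1.38-fold (1.32 to 1.45). Of the 8 phosphatase subunits and kinase regulators listed, Ppp1r15a was the 1 past the limit in each comparison with control, where 4.07% and 6.66% of all genes were higher past it, and none was lower, where 8.60% and 8.04% were. Their median ratios to control were 0.08 and 0.17.

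Of 18 regulators around mTORC1, S6 kinase and the cap complex, none passed the limit after glucose oxidase, where 4.07% of all genes were higher and 8.60% lower. With Et2HOBA 2 were lower past it, both against control (8.04% of all genes) and against glucose oxidase alone (2.15%). Pdcd4, an inhibitor of eIF4A, had 5878, 3049 and 1258 reads, at 0.555 (0.531 to 0.579) and 0.213 (0.200 to 0.226) of control. Deptor, an inhibitor within mTOR complexes, had 931, 784 and 334 reads, at 0.900 (0.818 to 0.991) and 0.356 (0.314 to 0.404). For Deptor the library with Et2HOBA was the one that stood apart, whereas Pdcd4 was lower in both treated libraries. The list's medians against control were 0.05 and -0.0037, the first turning to -0.0047 with total-count scaling.

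None of 12 poly(A)-binding and other initiation genes without the Eif name passed the limit in any comparison. Of all genes, 4.07% were higher and 8.60% lower past it after glucose oxidase, and 6.66% and 8.04% with Et2HOBA. Between the treated libraries the shares were 6.39% and 2.15%. Medians of the 12 were 0.08 and 0.08 against control, the second turning to -0.07 with total-count scaling. Pabpc4, for a poly(A)-binding protein, with 69.8% of its stretches shared with other genes (0.58 and 0.92), and Paip2b, for an inhibitor of such proteins, (-0.69 and -0.89) marked the ends of the range of log2 ratios against control. Among 14 elongation, release and rescue genes, 1 was higher past it with Et2HOBA (6.66% of all genes): Eef1e1, a part of the multisynthetase complex, with 371, 596 and 982 reads, at 1.72-fold (1.51 to 1.96) and 2.63-fold (2.33 to 2.97) of control. The median of those 14 was 0.30 after glucose oxidase and 0.46 with Et2HOBA, above the members' 0.15 and 0.31.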

How the data were processed

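Stranded mRNA libraries, 1 per group, were counted by the authors; the submitters' processing notes name STAR, featureCounts and mm10, without versions. The authors deposited raw read counts of the control and glucose oxidase plus Et2HOBA libraries with log-normalized values and their log2 difference, per the file headers, and for glucose oxidase against control a headerless symbol and log2 difference. A further table of 7 genes held no member and was not used.

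Glucose oxidase counts were recovered by inverting the inverse hyperbolic sine form of the deposited log2 values with the known control counts: 100% of 18275 genes matched by symbol came within 0.01 of a whole read (largest distance 0.000137; 3.31% with control counts raised by 1 read). The labels do not state that transformation. The other 12 genes were placed by whole reads.

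Libraries were scaled with median-of-ratios size factors (1.03, 0.965 and 1.04), 10 was added, and log2 ratios were taken; differences of 1 unit or more were counted. With a single library in each group there is no spread for a count model. Depth makes counting error small for most members. Exon lengths (all annotated exons of a gene merged), positions (53 of 53 the same) and 50-base stretches, on either strand, came from GENCODE M21. Promoters came from RefSeq. Analyses used Python 3.11.15 and scipy 1.17.1, and the ratios and the recovery were tested on simulated data. The ratio test changed only abundant genes and added less than 10, so scarce genes were not covered. The recovery test simulated the same inverse hyperbolic sine form, so it could not test that form. Full values are given for the kinases, eIF2, eIF2B, 4E-BP and cap-complex genes, for every member past 1 unit, and for the highest and lowest member of the other role groups with Et2HOBA. Of the pathway lists, the Ppp1r15 genes and those past 1 unit are named. Other genes (such as Eif6, Eif3b, Eif3d, Pabpc4 and Paip2b) were chosen after their values were seen. Members and lists were chosen with earlier results of these data known. Alternatives were the pseudocount, total-count scaling, a minimum mean of 10, members with no shared stretch, the deposited values and a limit of 0.5.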

Additional observations from a re-analysis of the deposited data

How the results depend on the processing

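With 1 library per group no replicate could be left out, and no paired analysis was possible because each group holds a single library. The counts past the limit moved with the limit and the gene set. At 0.5 units they were 9 higher and 2 lower after glucose oxidase, 14 and 2 with Et2HOBA, and 4 and 2 between the treated libraries. Over the 16 members with no shared stretch they were 0 higher and 0 lower after glucose oxidase. With Et2HOBA they were 1 higher (Eif2b3) and 0 lower, and between the treated libraries 0 were higher. Of all genes, 4.07% and 8.60%, 6.66% and 8.04%, and 6.39% lay past the limit in that order. Eif4ebp1, Eif3c, Eif1, Eif2s2, Eif2ak2 and Eif4a3l2 share a part of their sequence and were left out. A pseudocount of 1 gave 3 higher between the treated libraries, by adding the scarce genes Eif4a3l1 and Eif4e3; against control it gave 3 higher after glucose oxidase (Eif4ebp3 added) and 7 with Et2HOBA (Eif4a3l1 and Eif4e3 added). With the values of the authors' deposited table, there were 0 members lower past the limit after glucose oxidase; Eif4a3l2, the gene lost, is scarce. Deposited values were not run between the treated libraries, since the 7-gene table of that comparison holds no member. Total-count scaling lowered the median with Et2HOBA to 0.16 against control and to 0.0378 (main 0.13) against glucose oxidase alone, with all-gene medians of -0.13 and -0.08. It changed the sign of 12 of 96 log2 ratios of named genes, none larger than 0.13 in size (Eif2a in all 3 comparisons; Eif4g3 and Eif2ak4 after glucose oxidase; Eif4e, Eif4g3, Eif2b4 and Eif3l with Et2HOBA against control; Eif2b5, Eif2d and Eif4g1 between the treated libraries), and kept all 10 that were past the limit. Low read counts limit Eif4ebp3, Eif4e3, Eif4a3l1 and Eif4a3l2. They also share 65.5%, 12.8%, 48.9% and 63.4% of their stretches with other genes, and the part of that in their counts was not tested.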
